A study of Sus scrofa with 189 samples.

Results

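Slow-myosin-rich and slow-myosin-poor muscles were compared within a pig longissimus dorsi RNA-seq series. The 168 animals whose title carries no re-analysis mark were ranked by the summed level of the listed MYH7 transcripts, so the members were chosen by a measured value. The 42 highest animals formed the slow-myosin-rich group and the 42 lowest the slow-myosin-poor group, so 84 of the 189 animals of the series entered the comparison. All of them were offspring of 8 Duroc boars and of Luchuan sows, kept on one farm and one diet and slaughtered at 210 ± 6 days. The muscle was taken at the thoracolumbar junction 25 minutes after death, and the labels give no treatment, genotype or sex. The other 84 unmarked animals and the 21 animals marked as re-analyzed, whose mark the labels do not explain, lie outside both groups. The marked animals were used to look at the same relation in samples that the ranking did not touch. Their intramuscular fat spread more widely, at 0.77, 2.33 and 6.84 (lowest, median and highest), against 1.19, 3.29 and 5.61 in the unmarked animals with a record. The SDs were 2.28 (n = 21) and 0.85 (n = 143).

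A skeletal muscle is a mosaic of fibre types that differ in the myosin heavy chain they carry. Slow fibres use the beta heavy chain encoded by MYH7, pair it with their own light chains, troponins and tropomyosin, reload calcium with the pump SERCA2 and burn fuel largely in mitochondria. Fast fibres use the heavy chains of MYH2, MYH1 and MYH4, the pump SERCA1, and rely more on glycogen and glycolysis. Pig longissimus is a predominantly fast muscle. In a whole-muscle sample, more slow fibres, larger slow fibres and more slow-gene RNA per fibre cannot be told apart.

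MYH7 chose the groups, so its values are a description and carry no test. Its level, in FPKM (fragments scaled to transcript length and library size), was 1038, 1174 and 1989 (lowest, median and highest) in the slow-myosin-rich animals, against 106, 414 and 553 in the slow-myosin-poor animals. The means were 1249 ± 202 and 408 ± 96.9 FPKM (SD, n = 42 each), a ratio of 3.06. The order was continuous and the limits did not fall in gaps: the last slow-myosin-rich animal had 1037.94 FPKM and the next animal outside 1035.37, while the last slow-myosin-poor animal had 553.09 and the next outside 570.6. As a share of the summed heavy chain FPKM of MYH7, MYH2, MYH4, MYH8, MYH3 and MYH7B, MYH7 made up a median of 17.7% (12.3 to 27.9%) in slow-myosin-rich muscle and 7.17% (2.11 to 14.2%) in slow-myosin-poor muscle. Fast heavy chains were therefore the larger part in every animal of both groups. The re-analyzed animals had MYH7 at 319, 826 and 1619 FPKM, within the 106 to 1989 FPKM of the unmarked animals. The SDs were 367 FPKM (n = 21) and 332 FPKM (n = 168).

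**Figure D1:**
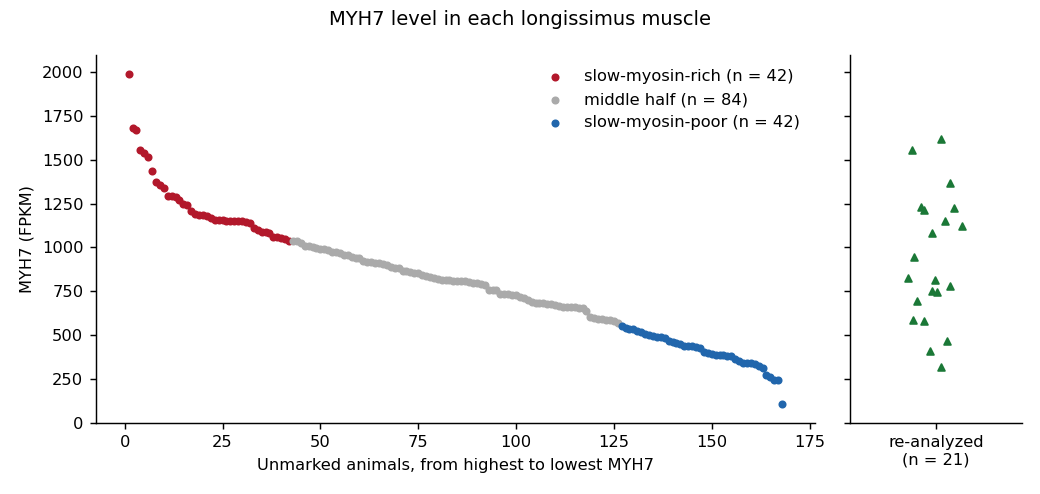
Each point is the summed MYH7 level (FPKM) of one animal, the unmarked animals in order of level and coloured by group on the left and the 21 re-analyzed animals on the right. The groups were taken from the ends of a continuous series, 1038 to 1989 FPKM for slow-myosin-rich and 106 to 553 FPKM for slow-myosin-poor, and the re-analyzed animals lie between 319 and 1619 FPKM.

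The listed MYH7 gene is wider than the RefSeq gene of that name. Its 6 transcripts lie on chromosome 7 of Sscrofa11.1 between 75650847 and 75704483, whereas RefSeq places MYH7 at 75650841 to 75672908 and its uncharacterised neighbour LOC100736765 at 75677666 to 75704486. The 1 transcript confined to RefSeq MYH7 held 59.1% of the summed level in slow-myosin-rich and 65.0% in slow-myosin-poor animals, the 4 transcripts spanning both loci held 38.0% and 31.6%, and the 1 transcript confined to the neighbour 2.92% and 3.48%. Ranking by the first of these alone kept 33 of the 42 slow-myosin-rich and 32 of the 42 slow-myosin-poor animals. Near-identical myosin genes share reads, so the split between these rows is uncertain. The listed MYH2 gene has the same limit: 82.5% of its level in slow-myosin-rich and 83.7% in slow-myosin-poor muscle came from a transcript at the RefSeq interval of MYH1.

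Of 10716 genes tested, with MYH7 left out, 270 were higher in slow-myosin-rich muscle (2.52%) and 45 were lower (0.42%) at an adjusted p under 0.05 (limma on log2(FPKM + 1), Benjamini-Hochberg adjustment). The median log2 fold change of all genes tested was 0.0083. Changes were small: 11 genes were higher by at least 1 on the log2 scale and 0 were lower by that much, where 43 and 6 passed 0.5. Tested as single transcripts, 249 of 14846 were higher and 33 lower (1.9% in all). The division into higher and lower calls depended on scaling. It was 243 and 91 after quantile normalization and 186 and 73 when every library was shifted to one median, so the share of higher calls was 72.8% and 71.8% against 85.7%. MYH7 and the other genes were read from the same libraries, and every difference is one of relative levels within them.

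The light chains of slow myosin were higher with MYH7. MYL2, the regulatory light chain of slow and cardiac myosin (chromosome 14, 32202466 to 32213672), had 271, 468 and 687 FPKM in slow-myosin-rich animals, against 66.1, 215 and 516 FPKM in slow-myosin-poor animals. All 42 slow-myosin-rich animals lay above the slow-myosin-poor median, and 16 lay above the highest slow-myosin-poor animal. The log2 fold change was 1.08 (SE 0.10, adjusted p = 4.3e-14). MYL3, the slow essential light chain (chromosome 13, 29730583 to 29735586), had 196, 698 and 1419 FPKM in slow-myosin-rich animals, against 90.4, 343 and 1492 FPKM in slow-myosin-poor animals. The ranges overlapped throughout, since the highest single value belonged to a slow-myosin-poor animal, but 40 of 42 slow-myosin-rich animals passed the other group's median (log2 fold change 1.01, SE 0.14, adjusted p = 4.3e-07). A further light chain gene, named MYL6 by the gene name table but lying at the RefSeq interval of MYL6B (chromosome 5, 21554351 to 21558995), had medians of 203 and 79.5 FPKM in slow-myosin-rich and slow-myosin-poor animals (log2 fold change 1.06, SE 0.16, adjusted p = 8.5e-07). MYL6B encodes an essential light chain found in slow skeletal muscle.

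The 3 slow troponin subunits, which switch the thin filament on when calcium binds, moved alike. TNNI1, the slow inhibitory subunit (chromosome 10, 23784634 to 23804082), had 279, 547 and 912 FPKM in slow-myosin-rich animals, against 86.9, 257 and 899 FPKM in slow-myosin-poor animals. TNNC1, the slow calcium-binding subunit (chromosome 13, 34591210 to 34594329), had 750, 1705 and 3248 FPKM in slow-myosin-rich animals, against 166, 838 and 3011 FPKM in slow-myosin-poor animals. TNNT1, the slow tropomyosin-binding subunit (chromosome 6, 59351177 to 59365770), had 678, 1135 and 1547 FPKM in slow-myosin-rich animals, against 211, 560 and 1492 FPKM in slow-myosin-poor animals. In each case the same slow-myosin-poor animal reached nearly the top of the slow-myosin-rich range, and that animal also held the highest MYL3 value. Below the lowest slow-myosin-rich animal lay 32 slow-myosin-poor animals for TNNT1, 28 for TNNI1 and 15 for TNNC1. The log2 fold changes were 1.09 for TNNI1 (SE 0.11, adjusted p = 5.6e-12), 1.01 for TNNC1 (SE 0.14, adjusted p = 1.0e-07) and 1.00 for TNNT1 (SE 0.089, adjusted p = 4.5e-15). TPM3, the slow tropomyosin on which these subunits sit, had 243, 504 and 769 FPKM in slow-myosin-rich animals, against 73.4, 239 and 437 FPKM in slow-myosin-poor animals. It was among the better separated genes, with 28 slow-myosin-rich animals above every slow-myosin-poor animal (log2 fold change 1.07, SE 0.095, adjusted p = 4.5e-15).

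Other slow sarcomere genes followed more loosely. MYOZ2, the calcineurin-binding Z-disc protein calsarcin-1 of slow fibres, had a log2 fold change of 0.85 (SE 0.15, adjusted p = 0.00012), and MYBPC1, slow myosin-binding protein C, one of 0.71 (SE 0.087, adjusted p = 3.5e-09). MYH7B, a slow-type heavy chain of low level with a median of 6.44 FPKM in slow-myosin-rich and 3.50 FPKM in slow-myosin-poor animals, was higher by 0.67 (SE 0.16, adjusted p = 0.0080), and ACTN2, an alpha-actinin of the Z-disc, by 0.37 (SE 0.078, adjusted p = 0.0019). In all, 10 of the 14 slow contractile genes tested were higher and 0 were lower, with a median log2 fold change of 0.78. The other 4 passed in neither direction. CSRP3 had a log2 fold change of 0.47 (95% interval 0.061 to 0.88, adjusted p = 0.24), and LMOD2, an actin filament nucleator, SMPX and the stretch-responsive ANKRD2 had 0.095, -0.088 and -0.19. MYOM1 and MYOM2, M-band proteins that were chosen after their values were seen, were higher by 0.45 (SE 0.077, adjusted p = 5.0e-05) and 0.41 (SE 0.076, adjusted p = 0.00024). Their calls were lost under 4 and 2 of 19 alternatives, for both genes including ranking by MYL2 and by TNNT1.

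Over the 168 unmarked animals the gene nearest to MYH7 in its pattern was not a filament protein but the slow calcium pump. ATP2A2, which encodes SERCA2 (chromosome 14, 31674654 to 31744978), had 126, 231 and 361 FPKM in slow-myosin-rich animals, against 29.1, 98.7 and 202 FPKM in slow-myosin-poor animals. The 26 highest slow-myosin-rich animals lay above every slow-myosin-poor animal, and 33 slow-myosin-poor animals lay below every slow-myosin-rich animal. Its log2 fold change of 1.32 (SE 0.10, adjusted p = 1.7e-17) had the smallest p of all genes tested. PLN, which encodes the SERCA2 inhibitor phospholamban, was higher by 0.77 (SE 0.17, adjusted p = 0.0022), with medians of 68.9 FPKM in slow-myosin-rich and 36.3 FPKM in slow-myosin-poor animals. CASQ2, the slow and cardiac calcium store protein, was higher by 0.52 (SE 0.15, adjusted p = 0.037; lost under 9 of 19 alternatives), and HRC, a luminal calcium-binding protein, by 0.27 (SE 0.068, adjusted p = 0.012). SLN, which encodes the SERCA-inhibiting peptide sarcolipin, went the other way at a high level, with 1481, 2093 and 3061 FPKM in slow-myosin-rich animals, against 1499, 2661 and 3282 FPKM in slow-myosin-poor animals. Only 5 of 42 slow-myosin-rich animals exceeded the slow-myosin-poor median, although the ranges overlapped almost wholly (log2 fold change -0.24, SE 0.059, adjusted p = 0.0082). The SLN call was lost when animals were ranked by MYL2 (-0.015, adjusted p = 0.92) or by TNNT1 (0.0053, adjusted p = 0.99).

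**Figure D2:**
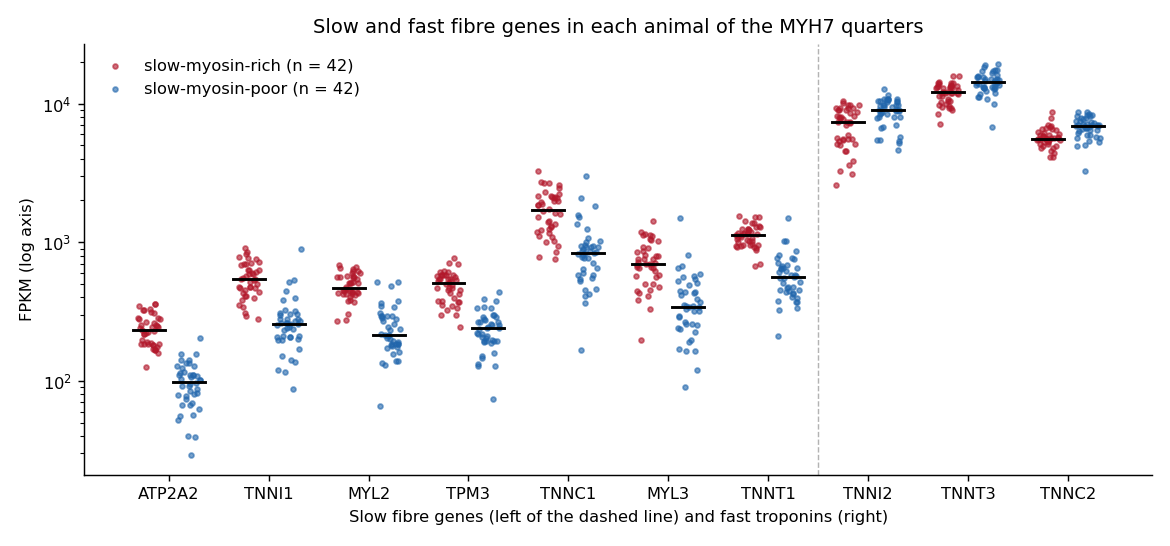
Each point is one animal's level (FPKM, log axis), slow-myosin-rich in red and slow-myosin-poor in blue with 42 animals each, and the black bars are medians. The 7 slow genes had higher medians in slow-myosin-rich animals with overlapping single values, and the 3 fast troponins lay at far higher levels with small shifts the other way.

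Fast-fibre genes differed less. Of 14 fast contractile genes tested, 3 were lower and 1 was higher, with a median log2 fold change of -0.044. The lower genes were the fast troponin subunits. TNNI2 had medians of 7366 FPKM in slow-myosin-rich and 9045 FPKM in slow-myosin-poor animals (log2 fold change -0.37, SE 0.096, adjusted p = 0.013), TNNT3 of 12034 and 14188 FPKM (-0.25, SE 0.059, adjusted p = 0.0061), and TNNC2 of 5590 and 6926 FPKM (-0.25, SE 0.055, adjusted p = 0.0036). After quantile normalization the 3 had adjusted p-values of 0.15, 0.20 and 0.13, in the same order, and none of the 3 was called when animals were ranked by MYL2 or TNNT1, where TNNT3 came to 0.0029 and 0.0031 and TNNI2 to 0.011 and -0.16. The higher gene was MYLK2, the skeletal myosin light chain kinase (0.41, SE 0.12, adjusted p = 0.046; lost under 8 of 19 alternatives).

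The fast heavy chains passed in neither direction. The listed MYH2 gene had medians of 3889 FPKM in slow-myosin-rich and 3116 FPKM in slow-myosin-poor animals, a log2 difference of 0.27 (95% interval 0.069 to 0.47, adjusted p = 0.15). MYH4, the fastest heavy chain, had 1848 and 1746 FPKM (0.079, 95% interval -0.19 to 0.34, adjusted p = 0.87). MYL1, MYLPF, TPM1, ACTN3, MYBPC2, MYOZ1 and MYOZ3 passed in neither direction. The 5 fast calcium-handling genes tested, including ATP2A1 (SERCA1) and CASQ1, gave 0 calls. PVALB, the fast-fibre calcium buffer parvalbumin, had medians of 10.3 and 20.8 FPKM but spread from 1.94 to 79.3 FPKM in slow-myosin-rich and from 0.66 to 74.0 FPKM in slow-myosin-poor animals (-0.72, SE 0.25, adjusted p = 0.10).

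Both members of a slow and fast pair are read in one library. The slow member's percent of the pair's summed FPKM is therefore unchanged when a single factor scales the whole library. Quantile normalization, which acts by level, can change that percent. TNNI1 made up a median of 7.49% (4.21 to 14.4%) of TNNI1 and TNNI2 in slow-myosin-rich animals and 2.65% (1.07 to 6.61%) in slow-myosin-poor animals. TNNT1 made up 8.29% (4.95 to 13.4%) of TNNT1 and TNNT3 in slow-myosin-rich animals and 3.96% (1.41 to 7.34%) in slow-myosin-poor animals, and 35 slow-myosin-rich animals lay above every slow-myosin-poor animal. The slow share was larger for troponin C, with TNNC1 at 23.4% of its pair with TNNC2 in slow-myosin-rich and 11.14% in slow-myosin-poor animals, and smaller for the regulatory light chain, with MYL2 at 3.36% and 1.35% of its pair with MYLPF. For the calcium pumps, ATP2A2 made up 9.41% (4.00 to 16.8%) of ATP2A1 and ATP2A2 in slow-myosin-rich animals and 4.63% (1.32 to 13.5%) in slow-myosin-poor animals. For the other 5 pairs the ratio of the medians was lower, 1.19 to 1.92. MYOZ2 made up a median of 3.01% of its pair with MYOZ1 in slow-myosin-rich and 1.57% in slow-myosin-poor animals, MYL3 23.7% and 12.7% of its pair with MYL1, and CASQ2 0.68% and 0.43% of its pair with CASQ1, with the highest CASQ2 share of both groups, 2.10%, in a slow-myosin-poor animal. MYBPC1 made up 15.6% and 10.8% of its pair with MYBPC2, and ACTN2 16.2% and 13.7% of its pair with ACTN3. These shares were computed after the fold changes were seen and are given as a description.

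Among the gene lists used here, those of mitochondrial enzymes encoded in the nucleus held many of the smaller differences. Of 21 citric acid cycle genes tested, 10 were higher, 0 were lower and all 21 had a positive log2 fold change, with a median of 0.24 beside 0.0083 for all genes. SDHA, the catalytic subunit of succinate dehydrogenase, had 90.2, 124 and 178 FPKM in slow-myosin-rich animals, against 72.97, 99.2 and 133 FPKM in slow-myosin-poor animals. The ranges overlapped, but 38 of 42 slow-myosin-rich animals exceeded the slow-myosin-poor median (log2 fold change 0.33, SE 0.048, adjusted p = 8.0e-07). IDH2, mitochondrial isocitrate dehydrogenase, had medians of 257 and 193 FPKM in slow-myosin-rich and slow-myosin-poor animals (0.36, SE 0.072, adjusted p = 0.00074). When animals were ranked by MYL2 or TNNT1 instead, 1 and 3 citric acid cycle genes were called higher, beside 83 and 96 of all 10715 genes tested.

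In the respiratory chain, 6 of 23 nuclear complex I genes and 6 of 23 nuclear genes of complexes III to V were higher and 0 were lower, with medians of 0.11 and 0.13. Complex I was led by NDUFV1 (0.30, SE 0.047, adjusted p = 6.6e-06), NDUFA9 (0.28, adjusted p = 0.00037) and NDUFS1 (0.32, adjusted p = 0.0037), and complex III by its core subunits UQCRC1 (0.29, adjusted p = 0.00065) and UQCRC2 (0.28, adjusted p = 0.00079) and the iron-sulphur subunit UQCRFS1 (0.23, adjusted p = 0.0015). In complex I, 6 genes were called higher when animals were ranked by MYL2, 12 by TNNT1 and 4 by the transcript at RefSeq MYH7. The counts in complexes III to V were 12, 12 and 4. Over all genes tested, 83 and 96 of 10715 and 87 of 10716 were higher under these rankings. The 13 genes of the mitochondrial genome gave 0 calls and a median of 0.0093, and their share of the summed FPKM was 7.09% ± 2.38 in slow-myosin-rich and 6.60% ± 1.96 in slow-myosin-poor animals (SD, n = 42 each, permutation p = 0.30, 0.45 adjusted over 6 library measures).

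Fuel-handling genes were called in small numbers. In fatty acid uptake and oxidation, 4 of 25 genes were higher: ACADVL, the very-long-chain acyl-CoA dehydrogenase (0.43, SE 0.059, adjusted p = 1.9e-07), CPT2, the inner carnitine palmitoyltransferase (0.40, SE 0.079, adjusted p = 0.00068), ETFB, which passes their electrons to the chain (0.25, SE 0.058, adjusted p = 0.0053), and ACAA2, the last thiolase step (0.35, adjusted p = 0.0053). One was lower, UCP3, the muscle uncoupling protein, with 2.44, 14.6 and 119 FPKM in slow-myosin-rich animals, against 5.98, 28.9 and 91.0 FPKM in slow-myosin-poor animals (-0.76, SE 0.23, adjusted p = 0.048). Its call was lost under 8 of 19 alternatives. LDHB, the heart-type lactate dehydrogenase subunit, was higher by 0.44 (SE 0.12, adjusted p = 0.018), although the highest single value, 509 FPKM, was in a slow-myosin-poor animal. GPD1 of the glycerophosphate shuttle (0.23, adjusted p = 0.035), PPP1R3C, which targets a phosphatase to glycogen (0.56, adjusted p = 0.024), and PYGM, muscle glycogen phosphorylase (0.23, adjusted p = 0.045), were also higher, calls lost under 8, 7 and 10 of 19 alternatives. Ranked by the transcript at RefSeq MYH7, 0 of the 13 glycogen genes and 0 of the 12 genes of lactate, glycerophosphate and energy buffering were called. Under that ranking 87 of all 10716 genes were higher and 27 lower. The 14 glycolysis genes gave 0 calls at a median of 0.00049, with a smallest adjusted p of 0.067.

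**Figure D3:**
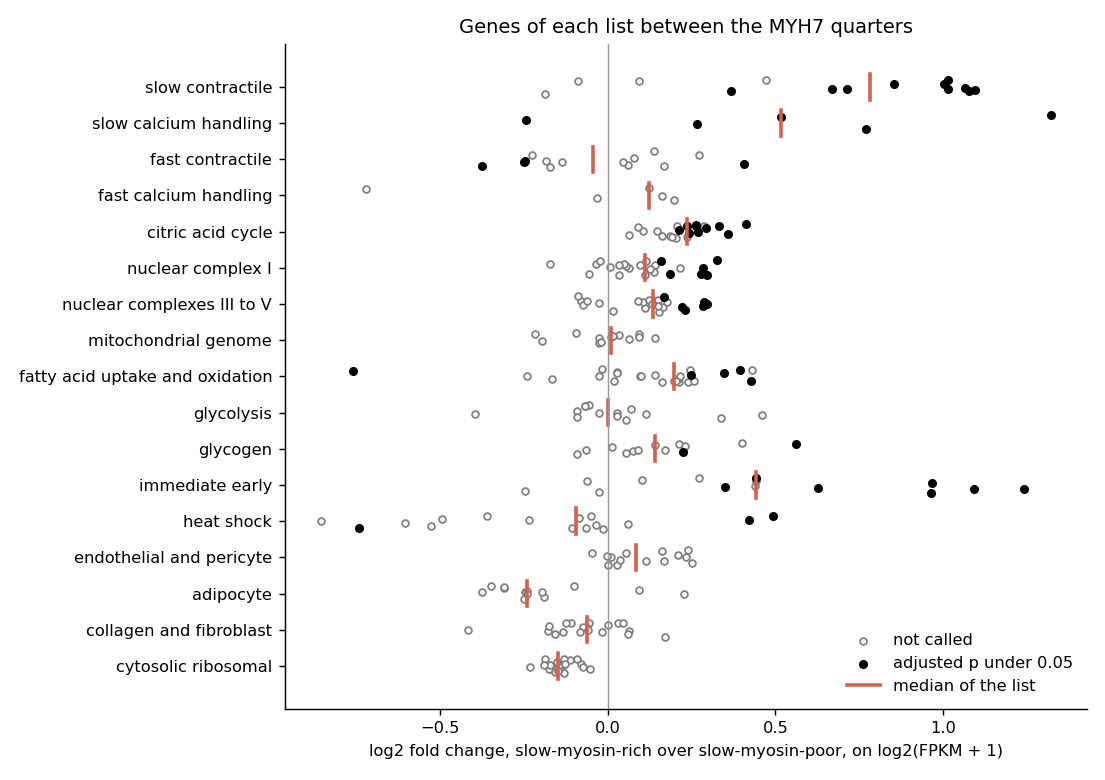
Each point is one gene's log2 fold change, slow-myosin-rich over slow-myosin-poor, with lists down the page, filled points for an adjusted p under 0.05 and the red bar at the list median. Slow contractile genes reach 1.09 with a median of 0.78, citric acid cycle genes lie together on the positive side at a median of 0.24, and the fast contractile and glycolysis lists are centred near 0.

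Regulators of fibre type were mostly not called. Of 23 slow-programme regulators, MYOZ2 and PPARGC1B were higher. PPARGC1B, a coactivator of mitochondrial genes, had medians of 2.67 FPKM in slow-myosin-rich and 1.69 FPKM in slow-myosin-poor animals (0.47, SE 0.090, adjusted p = 0.00036). The PPARGC1B call was lost under 3 of 18 alternatives, among them ranking by MYL2 and by TNNT1. The 16 fast-programme regulators, among them SOX6 and TBX15, gave 0 calls, with a smallest adjusted p of 0.13. In each of 3 other lists 1 gene was called. CHRNE, the adult acetylcholine receptor subunit, was higher by 0.25 (adjusted p = 0.030) among 8 nerve and junction genes and lost its call under 6 of 18 alternatives. GPAM, the first acyltransferase of lipid synthesis, was higher by 0.26 (adjusted p = 0.012; lost under 6 of 18) in a list where 10 of 15 genes were negative. SMTN, smoothelin, was higher by 0.18 (adjusted p = 0.0496; lost under 11 of 19) among 7 smooth muscle genes.

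Immediate early genes, transcription factors induced within minutes of a stimulus, showed some of the largest differences of genes outside the sarcomere. FOS had 17.5, 111 and 480 FPKM in slow-myosin-rich animals, against 2.21, 48.1 and 255 FPKM in slow-myosin-poor animals. The ranges overlapped widely, with 35 of 42 slow-myosin-rich animals above the slow-myosin-poor median (log2 fold change 1.24, SE 0.26, adjusted p = 0.0018). FOSB was higher by 1.09 (SE 0.19, adjusted p = 9.3e-05) and EGR1 by 0.97 (SE 0.21, adjusted p = 0.0027), and in all 7 of 14 genes of the list were higher and 0 lower, with a median of 0.44. The summed level of the 14 genes was 137 to 1800 FPKM in slow-myosin-rich and 87.4 to 979 FPKM in slow-myosin-poor animals. When animals were ranked by MYL2 or by TNNT1, 0 of the 14 genes were called, where 83 and 96 of all 10715 genes were higher. FOS came to 0.46 (adjusted p = 0.31) and 0.31 (adjusted p = 0.69). OTUD1, a deubiquitinase, had the largest log2 fold change of the called genes with a symbol, 1.36 (SE 0.30, adjusted p = 0.0036), with medians of 73.7 and 23.4 FPKM and the same loss under both other rankings (0.40, adjusted p = 0.45 and 0.62, adjusted p = 0.38). Of 16 heat shock genes 13 had negative log2 fold changes, with a median of -0.095. HSPB6 (0.42, adjusted p = 0.011) and DNAJB1 (0.49, adjusted p = 0.048) were higher and HSPB8 (-0.74, SE 0.22, adjusted p = 0.040) was lower, calls lost under 3, 10 and 9 of 19 alternatives.

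The lower genes were few and of mixed kind. Besides UCP3, HSPB8 and TNNI2, the largest falls of genes with a symbol were in MGP, matrix Gla protein, with medians of 20.4 FPKM in slow-myosin-rich and 40.6 FPKM in slow-myosin-poor animals (-0.69, SE 0.20, adjusted p = 0.040), VASH2, a tubulin carboxypeptidase (-0.58, adjusted p = 0.033), SRXN1, sulfiredoxin (-0.50, adjusted p = 0.027), and XBP1, a transcription factor of the unfolded protein response (-0.48, adjusted p = 0.029). RFX1, DLGAP4, MFAP5, HIST1H2BD and ANG followed, between -0.47 and -0.39. Each of these 9 genes lost its call under at least 4 alternatives, among them HIST1H2BD under 4 of 19, MFAP5 under 5 of 19, and MGP under 9 of 19. Each was below the slow-myosin-poor median in at least 30 of 42 slow-myosin-rich animals.

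Apart from CHRNE and SMTN, given above, markers of other cells gave no calls, though some lists leaned one way. Lists for adipocytes (13 genes tested), collagen and fibroblasts (19), endothelium and pericytes (14), macrophages and lymphocytes (10), red blood cells (4) and satellite cells (11) gave 0 calls, where 2.52% and 0.42% of all genes were called higher and lower. Of the adipocyte genes 11 of 13 had negative log2 fold changes, with a median of -0.24 that came to -0.15 without the 3 libraries least correlated with the others. Of the collagen and fibroblast genes 14 of 19 were negative, with a median of -0.060 that turned to 0.067 and 0.047 when animals were ranked by MYL2 and TNNT1. The summed adipocyte level was 161 to 567 FPKM in slow-myosin-rich animals and 171 to 3800 FPKM in slow-myosin-poor animals, the upper end resting on 1 animal, with medians of 285 and 294 FPKM. Endothelial genes summed to medians of 174 and 151 FPKM, with 12 of 14 positive and a median log2 fold change of 0.085. The defining adipocyte markers ADIPOQ and PLIN1 and the fibroblast markers COL1A1, COL3A1 and DCN were above 0 in all libraries. Of the cardiac list, 1 gene, TNNT2, was tested (0.61, adjusted p = 0.064). All 20 cytosolic ribosomal protein genes had negative log2 fold changes, with a median of -0.15, and 0 were called. Measured intramuscular fat, the trait recorded in the labels, was 3.26 ± 0.98 in 39 slow-myosin-rich animals and 3.40 ± 0.79 in 33 slow-myosin-poor animals (SD; difference -0.13, SE 0.21, permutation test, 2-sided p = 0.54, 0.64 adjusted over 6 library measures).

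Of 6 library measures, 1 differed between the groups past the threshold. The summed FPKM was 410754 ± 15959 in slow-myosin-rich and 424115 ± 18004 in slow-myosin-poor animals (SD, n = 42 each, permutation p = 0.00040, 0.0024 adjusted over 6 library measures). The level of long minus that of short genes, as medians of log2(FPKM + 1) per library, averaged -1.10 in slow-myosin-rich and -1.18 in slow-myosin-poor animals (difference 0.080, SE 0.033, permutation p = 0.017, 0.052 adjusted). Between the groups the median log2 fold change was -0.037 for genes whose transcripts are under 1500 bases and 0.036 for those of 5000 bases or more. The slopes on MYH7 in the animals outside the groups ran the other way, from 0.013 to -0.075 in the re-analyzed animals and from -0.019 to -0.19 in the unmarked animals between the groups. With the difference in level between long and short genes as a covariate, 10 slow contractile and 11 citric acid cycle genes were higher, while the calls over all genes became 406 higher and 389 lower.

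**Figure D4:**
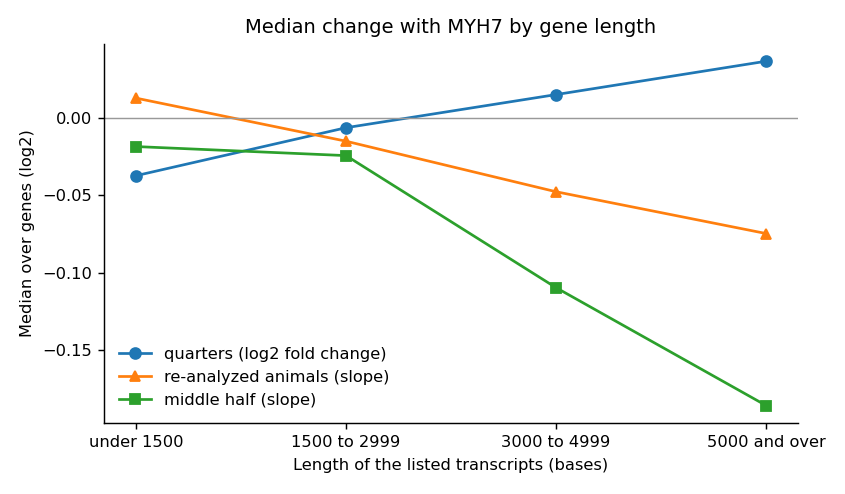
Each point is the median over genes of one transcript length class (bases, horizontal axis) of the log2 fold change between the groups or of the slope on MYH7 (log2, vertical axis). The line for the groups climbs from -0.037 to 0.036, and the lines for the re-analyzed animals and for the unmarked animals between the groups descend to -0.075 and -0.19.

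The first 4 digits of the animals' titles, which look like a year and month but are not explained, were spread unevenly, with 15 slow-myosin-rich and 7 slow-myosin-poor animals in one set and 26 and 30 in the largest. Within these sets, in that order, ATP2A2 differed by 1.57 and 1.15 on the log2 scale, TNNI1 by 1.29 and 1.02, and MYL2 by 1.44 and 0.95. TNNI2 differed by -0.32 and -0.40, and FOS by 0.73 and 1.604. Each of these kept its sign in both sets.

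The 2 sets of animals outside the groups allowed the relation to be looked at again, as a slope of each gene's log2(FPKM + 1) on that of MYH7. In the 21 re-analyzed animals 13 genes had a positive slope past the threshold (0.121%) and 1 a negative slope (0.00933%). All 14 kept their calls with fat as a covariate. Of the 13, 8 were slow contractile genes: TNNC1 (slope 1.08, SE 0.11, adjusted p = 5.8e-06), TNNI1 (1.08, SE 0.11, adjusted p = 5.8e-06), TPM3 (0.96, adjusted p = 1.2e-05), MYL2 (0.99, adjusted p = 3.5e-05), TNNT1 (0.97, adjusted p = 9.9e-05), MYL3 (1.10, adjusted p = 0.00010), MYOZ2 (0.96, adjusted p = 0.00025) and MYH7B (0.54, adjusted p = 0.039). A slope of 1 means that a gene's level changed in proportion to MYH7. ATP2A2 (0.68, SE 0.13, adjusted p = 0.023) and PLN (0.76, SE 0.15, adjusted p = 0.025) were the calcium-handling genes. ATP2A2, which had the smallest p between the groups, had a shallower slope here than these slow contractile genes other than MYH7B. Other positive slopes included that of DNAJC17, a J-domain protein (0.68, adjusted p = 0.015), and that of ENSSSCG00000031822, whose interval on chromosome 7 (75669445 to 75672321) lies inside that of MYH7, so that its level may not be independent of the ranking value. The negative slope was that of GXYLT2, a xylosyltransferase (-0.37, adjusted p = 0.020).

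In the 84 unmarked animals between the groups, where MYH7 spans a narrow range, 5 genes had a positive slope past the threshold (0.0467%) and 3 a negative one (0.028%). The 5 were TNNI1 (slope 1.10, SE 0.20), MYL3 (1.58, SE 0.29), MYL2 (0.89, SE 0.16), TNNT1 (0.80, SE 0.16) and TNNC1 (1.00, SE 0.22), with adjusted p-values between 0.0016 and 0.036. With the difference in level between long and short genes as a covariate, TNNT1 (adjusted p = 0.12) and TNNC1 (0.56) were no longer called, and TNNC1 was also lost after quantile normalization (0.076). TPM3 (0.60, adjusted p = 0.073) and ATP2A2 (0.57, adjusted p = 0.073) were positive without passing. That value was not particular to slow genes: it was also the smallest adjusted p of the glycolysis, nuclear complex I and heat shock lists. In these animals 3026 of 10716 genes had an unadjusted p under 0.05, and 608 did with the long and short gene covariate. The 3 negative slopes, NCBP3 (-0.52), PNRC2 (-2.41) and the unnamed ENSSSCG00000039084 (-0.65), belonged to genes with log2 fold changes of 0.050, 0.30 and 0.017 between the groups, none of them called.

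**Figure D5:**
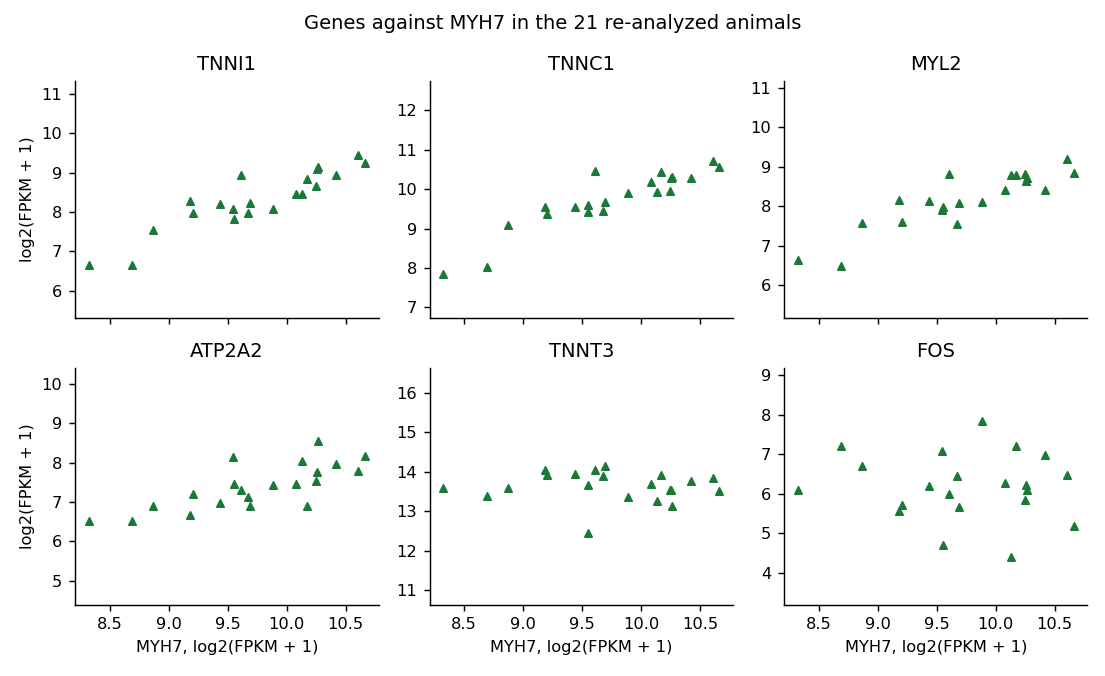
Each triangle is one of the 21 re-analyzed animals, with MYH7 on the horizontal axis and the named gene on the vertical axis, both as log2(FPKM + 1), and every panel covers 6 log2 units. TNNI1, TNNC1, MYL2 and ATP2A2 climb with MYH7 at slopes of 1.08, 1.08, 0.99 and 0.68, while TNNT3 and FOS have slopes of -0.031 and -0.12.

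Few other calls between the groups passed the threshold again. Of the 270 higher genes, 139 had a positive slope in the re-analyzed animals (51.5%, beside 37.6% of all genes tested), and 11 of these passed the threshold. In the unmarked animals between the groups 163 were positive (60.4%, beside 37.0% of all genes) and 5 passed. Of the 45 lower genes, 29 had a negative slope in the re-analyzed animals, as did 6688 of the 10716 genes tested, and 0 passed. In the unmarked animals between the groups 24 of the 45 were negative, beside 6752 of the 10716, and 0 passed. The fast troponins had slopes of 0.15 (TNNI2), 0.023 (TNNC2) and -0.031 (TNNT3) in the re-analyzed animals, with adjusted p-values of 0.86 or more. For FOS, FOSB and EGR1 the slopes there were -0.12, -0.41 and -0.24, and 3 of the 14 immediate early genes were positive. Between the groups, in the other unmarked animals, 12 of these 14 had a positive slope. Their median was 0.26 beside -0.091 for all genes tested, with 0 calls. The nuclear mitochondrial genes were mostly positive in the re-analyzed animals. They numbered 17 of 21 in the citric acid cycle, 22 of 23 in complex I and 22 of 23 in complexes III to V. Their medians were 0.099, 0.12 and 0.20 beside -0.037 for all genes tested, with 0 calls. Fewer were positive in the unmarked animals between the groups: 14 of 21, 13 of 23 and 18 of 23, in the same order. The medians were 0.12, 0.065 and 0.19 beside -0.091 for all genes tested, again with 0 calls. The slope differed past the threshold between re-analyzed and unmarked animals for 1 gene of 10716 (0.00933%), DNAJC17.

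By likeness of pattern over the 168 unmarked animals, the genes closest to MYH7 (Pearson correlation of log2(FPKM + 1)) were ATP2A2 (r = 0.81), MYL2 (0.76), TNNT1 (0.76), TPM3 (0.76), TNNI1 (0.71), TNNC1 (0.63), ENSSSCG00000031822 (0.62), MYL3 (0.58), the gene named MYL6 (0.54) and CRHR2, a receptor for urocortins (0.53). The 3 genes after ATP2A2 are not separated in this order. In the 21 re-analyzed animals the order was another: ATP2A2 had r = 0.75, below TNNC1 (0.91), TNNI1 (0.91), TPM3 (0.90), MYL2 (0.88), TNNT1 (0.87), MYL3 (0.86) and ENSSSCG00000031822 (0.80). CRHR2, of low level with medians of 1.61 FPKM in slow-myosin-rich and 0.80 FPKM in slow-myosin-poor animals, is the gene on the list with no part in contraction or calcium handling in its name (log2 fold change 0.49, SE 0.058, adjusted p = 1.3e-09), and its slope in the re-analyzed animals was 0.26 (adjusted p = 0.51). At the other end stood 2 unnamed genes on unplaced scaffolds, ENSSSCG00000032599 (-0.40) and ENSSSCG00000034846 (-0.38), then HM13 (-0.36), TNNC2 (-0.34) and HIST1H2BD (-0.31). These values share library and depth with MYH7 and are given as a description.

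Ranking by another slow gene gave partly different animals. MYL2 placed 23 of the 42 slow-myosin-rich and 27 of the 42 slow-myosin-poor animals in the same group, with 3 crossing over, and TNNT1 placed 26 and 27 with 1 crossing. Of the 315 genes called by MYH7 rank, 57 were called in the same direction by MYL2 rank and 61 by TNNT1 rank, and 65 and 29 had the opposite sign. Of the named genes, those called under each of the 19 alternatives of the test were TNNI1, TNNC1, MYL3, TPM3, MYBPC1, ATP2A2, the gene named MYL6, NDUFA9 and UQCRC1, and, wherever they were not the ranking gene, MYL2 and TNNT1. CRHR2 was called in the 18 alternatives in which it was tested.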

How the data were processed

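RNA of 189 longissimus dorsi muscles was read as paired 150-base polyA libraries, per the labels' protocols. The authors deposited one FPKM value per transcript and sample, made with HISAT2 2.0.5 and StringTie 1.3.3 on Sscrofa11.1, per the submitters' processing notes; the unit was inferred from the values, and read depth is not given in the sources used here. Values of 18114 transcripts were summed to 12651 genes, of which 10717 had a mean of at least 0.5 FPKM. Symbols came from the deposited table for 10949 genes and from a gene name table for 746. Limma 3.58.1 (R 4.3.3) was fitted to log2(FPKM + 1) with a mean trend, MYH7 left out, and p-values were Benjamini-Hochberg adjusted over all 10716 genes. Fold changes on this scale understate those of low genes. The fit was tested on simulated data with known changes. Single library values were compared by permutation (100000 resamples, 2-sided). Animals are separate samples, and 48 title codes are shared between animals, whose meaning the labels do not give. With 8 boars, animals of the groups share sires, and the sire of an animal did not enter any test. No libraries held identical values. The members, gene lists and tests were chosen with earlier results of these data known. Named genes were all tested members of the slow and fast contractile and calcium lists, the 12 largest higher and lower calls with a symbol, up to 3 calls per direction of every other list, and the genes most and least like MYH7. Results for some genes that this rule names are not reported here, and no sequence was used here.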

Additional observations from a re-analysis of the deposited data

Results flagged for a closer look

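DNAJC17, a J-domain co-chaperone gene, stood out because its slope on MYH7 differed between sets of animals. The slope was 0.68 (SE 0.12, adjusted p = 0.015) in the 21 re-analyzed animals and -0.037 (SE 0.046, adjusted p = 0.74) in the 168 unmarked animals, a difference of 0.717 (SE 0.14, adjusted p = 0.016, limma interaction over 10716 genes). The gene was of low level, with a median of 1.70 FPKM in slow-myosin-rich and 1.81 FPKM in slow-myosin-poor animals and a log2 fold change of 0.012. It was the only gene of 10716 to pass, where 710 had an unadjusted p under 0.05, and it was not tested once a mean of 5 FPKM was required. Fat spread more widely in the re-analyzed than in the unmarked animals, and its part in the slope difference was not tested.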

How the results depend on the processing

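The number of higher genes between the groups, 270, came to 37 with the highest and lowest 16 animals, 147 with 84 against 84, 83 and 96 when ranked by MYL2 and TNNT1, 87 when ranked by the transcript at RefSeq MYH7, and 460 and 406 with the mitochondrial share and gene number or the long-minus-short gene level as covariates. The 45 lower genes came to 2 with the highest and lowest 16, 91 after quantile normalization, 73 after a median shift, 92 as a slope over 168 animals, 399 when ranked by MYL2, 74 when ranked after quantile normalization, 27 by the RefSeq transcript, and 232 and 389 with those covariates. The cause of these moves was not tested, except that 16 or 84 animals a group change the number of samples. The re-analyzed slope gave 1 lower gene, and 2 after quantile normalization or with fat as a covariate, 5 without a filter and 0 with a pseudocount of 0.1 or a mean of 5 FPKM. The slope in the 84 unmarked animals between the groups gave 9 higher genes, against 5, after a median shift, and 1 and 0 lower genes, against 3, at a mean of 5 FPKM and with the long-minus-short covariate. The slope difference gave 0 higher genes, against 1, at a mean of 5 FPKM and 3 lower genes, against 0, with a pseudocount of 0.1. The fat difference turned to 0.0074 with the highest and lowest 16 animals (permutation p = 0.99). SLN (0.0053) and TNNT3 (0.0031) turned sign when ranked by TNNT1, and TNNT3 (0.0029) and TNNI2 (0.011) when ranked by MYL2. Some lists given with 0 calls gained calls without the 3 libraries least correlated with the others. These were 1 lower fast calcium-handling gene, 1 higher and 1 lower glycolysis gene, and 1 higher gene each among adipocyte and endothelial genes. Over all genes 387 were then higher and 58 lower. With the long-minus-short covariate 1 fast calcium-handling gene was higher. A block on the shared title codes left 271 higher and 45 lower genes (within-code correlation -0.0035). The RefSeq-transcript ranking, the long-minus-short covariate and leaving out 3 libraries were chosen after seeing the data. No paired analysis was run, and the labels do not say what the title codes mean. Of the 20 title codes shared by animals of the groups, 10 held animals of both, and these codes entered only as the block. Read depth is unknown, so no counting error could be given.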
